A study of Mus musculus and Mus musculus
Rattus norvegicus with 30 samples.

Results

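The nuclear-encoded respiratory chain genes were the rows of the RNA-seq count tables whose symbols begin with Nduf, Uqcr or Atp5, those of the Sdh genes Sdha to Sdhd, and those that begin with Cox followed by 4 to 8. The rule used names alone and no measured value. It found 91 genes among the 19919 present in both mouse embryonic stem cell (mESC) tables, 92 of 34923 genes on the mouse side of the rat-mouse cells and 93 of 25245 on the rat side, of which 89 could be paired between the species. By complex the 91 mESC members were 44 of complex I, 4 of complex II, 8 of complex III, 19 of complex IV and 16 of complex V.

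The cells were mESCs and RMES cells, which are rat-mouse allodiploid embryonic stem cells made by fusion and carry 1 mouse and 1 rat chromosome set. Both were kept in N2B27 medium with 2 inhibitors and LIF and were transduced with a lentivirus from which Flag-tagged Cdx2 is induced by doxycycline (DOX, 48 h). Cdx2 is a homeobox factor of the trophoblast lineage, and its mouse and rat proteins differ at 3 amino acids of the DNA binding domain. The 20 mESC RNA libraries fell into 10 groups of 2, namely WT, mCdx2-OE (mouse Cdx2), rCdx2-OE (rat Cdx2) and rat Cdx2 mutants R1, R2, R3, R12, R13, R23 and R123, whose digits name the changes introduced and whose labels name no residue. The 4 RMES RNA libraries were 2 labelled WT, 1 mCdx2-OE and 1 rCdx2-OE, and the last 2 were treated as replicates of Cdx2 induction because the study did so. The induced lines were stable lines from lentiviral transduction, and whether the WT cells held the vector or were given DOX is not stated in the labels. Nothing in the labels says that replicates came from separate cultures, so each p-value measures the spread between libraries, which may be technical.

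Oxidative phosphorylation runs on protein complexes of the inner mitochondrial membrane. Complex I (NADH dehydrogenase, Nduf genes) and complex II (succinate dehydrogenase, Sdh genes) feed electrons into the chain, complex III (cytochrome bc1, Uqcr genes) hands them to cytochrome c, complex IV (cytochrome c oxidase, Cox genes) passes them to oxygen, and complex V (ATP synthase, Atp5 genes) makes ATP from the proton gradient. All but complex II also hold subunits encoded by mitochondrial DNA, so that a working chain needs products of both genomes to fit. Undifferentiated mESCs rely on both glycolysis and respiration, and tissue isoforms of several complex IV subunits mark muscle, testis or hypoxic cells.

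Total counts, in units of 1000000, were 75 to 94.7 in the WT mESC libraries and 12.7 to 24.3 in the 18 induced ones, and in RMES cells 36.2 to 41.4 on the mouse side and 29.5 to 35.2 on the rat side. Cdx2 stood at 1.36 and 1.21 CPM (counts per 1000000 of the library total after TMM scaling) in WT mESCs and between 37.2 and 147 CPM in the induced libraries, where reads of the rat transgene were counted on the mouse gene. The RMES libraries labelled WT were not free of Cdx2, with 129 and 126.6 CPM on the mouse gene and 453 and 440 CPM on the rat gene. In the induced libraries the mouse gene was at 967 CPM with mCdx2 and 4.45 CPM with rCdx2, and the rat gene at 47.2 and 880 CPM. Over both induced RMES libraries, Cdx2 did not pass the test on the mouse gene (1.93, adjusted p = 0.136) or the rat gene (0.06, adjusted p = 0.942, edgeR). As each induced library was high on 1 of these genes alone, that test cannot measure the change in total Cdx2. Markers of mESCs summed to 3380 to 3400 CPM in WT and 2170 to 3430 CPM in induced mESCs. In the same order, trophoblast markers were at 154 to 156 and 155 to 749 CPM, fibroblast markers at 33.5 to 34 and 1.28 to 4.46 CPM (6 of 6 found), and primitive endoderm markers at 2.85 to 2.96 and 6.46 to 13.8 CPM. Within the mESC list Pou5f1 (1470 CPM in WT, 499 to 942 induced) and Sox2 (466 to 491, 203 to 367) were lower. Nanog (539 to 541, 686 to 969) and Klf4 (131 to 140, 175 to 262) were higher, and Zfp42 and Esrrb overlapped WT. Within the trophoblast list Krt8 (13.6 to 14.5, 27.5 to 259), Krt18 (8.97 to 9.85, 30.3 to 342), Gata3 and Hand1 were higher. Eomes (7.81 to 8.56, 3.07 to 5.99) was lower, and Tfap2c and Elf5 overlapped WT. The WT libraries differed from each other by over 2-fold at 69 of the 12704 genes whose mean count was 100 or more, and Atp5g2 was the member among them. The part of these differences in the results that follow was not tested.

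Induction of mouse Cdx2 in mESCs went with lower RNA for most respiratory chain genes, in every complex. Of 89 members that passed the low-count filter, 73 fell (adjusted p under 0.05, edgeR), against 35.8% of the 16000 genes tested, and 1 rose, against 34.0%. The remaining 15 did not pass the test. The fall exceeded 2-fold for 28 members, against 15.0% of all genes. The median log2 change of the members was -0.78 and that of all genes tested was -0.03. In these bulk libraries fewer cells with high levels and less RNA per cell cannot be told apart. Cox4i2 and Cox8c did not pass the filter.

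**Figure D1:**
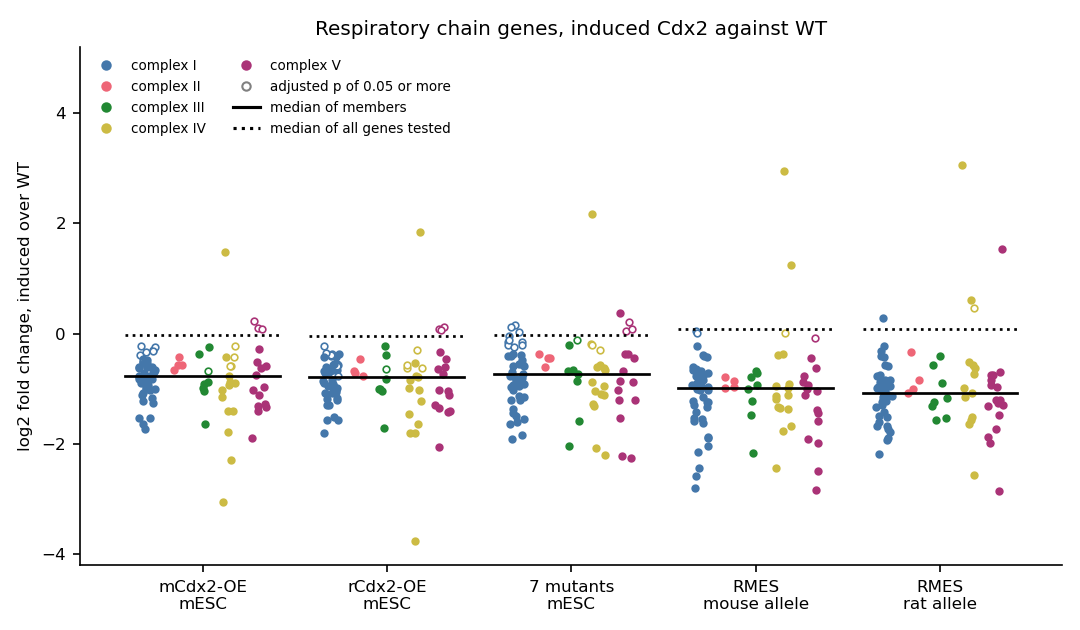
The log2 fold change of each respiratory chain gene (1 point a gene, coloured by complex, open where adjusted p was 0.05 or more) is plotted for 5 comparisons of induced cells with WT. The median of the members (solid line) lay between -0.73 and -0.78 in mESCs and at -0.997 and -1.08 in RMES cells, while the median of all genes tested (dotted line) lay near 0.

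Among members with a mean of at least 50 counts and 1 direction in both replicates, the 5 largest falls with mCdx2 came from complexes I, III, IV and V. Atp5e, the epsilon subunit in the stalk of ATP synthase, was at 120.8 and 124.1 CPM in WT, 41.8 and 23.7 CPM with mCdx2 and 37.1 and 20.9 CPM with rCdx2. Across all 18 induced libraries it ran from 20.6 through a median of 26.3 to 41.8 CPM, below both WT libraries, and its log2 change with mCdx2 was -1.89 ± 0.24 (SE, n = 2 and 2, adjusted p = 3.93e-06, edgeR). Cox7c, a small structural subunit of complex IV, was at 444.4 and 427.3 CPM in WT and between 111.4 and 213.5 CPM in the induced libraries (median 158.1), and fell by 1.78 ± 0.22 on the log2 scale with mCdx2. The groups did not overlap for either gene.

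Ndufb2 and Ndufb6 are supernumerary subunits of the membrane arm of complex I. Ndufb2 was at 54.1 and 51.9 CPM in WT and from 10.9 through 14.6 to 18.1 CPM in the induced libraries, a log2 change of -1.74 ± 0.24 with mCdx2. Ndufb6 was at 97.6 and 95.6 CPM in WT and from 29.8 through 34.4 to 42.8 CPM in the induced libraries (-1.64 ± 0.15). Uqcr11, a small subunit of complex III, was at 122.3 and 117.8 CPM in WT and from 22.1 through 29.2 to 50.9 CPM in the induced libraries (-1.64 ± 0.28). The mCdx2 replicates were not alike for this gene, at 50.9 and 25.03 CPM. Of 86 members with a mean of 100 counts or more, 11 differed over 2-fold between these replicates, against 70 of all 10551 such genes. The rCdx2 replicates differed so at 12 of 86 members (69 of 10600 genes). Both lists held Atp5k, Cox6b1, Cox7a1, Cox7a2, Ndufa1 and Uqcr11. No mutant pair had such a member. The median of the members with mCdx2 was -1.01 without replicate 1 and -0.62 without replicate 2. With offsets for gene length and GC content the call on Uqcr11 was lost (-0.46, adjusted p = 0.0688, edgeR).

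Taken by complex, 37 of 44 complex I members fell with mCdx2, among them 8 of 8 assembly factors, and none rose. Of all genes 35.8% fell and 34.0% rose. Complex III had 7 of 8 lower and complex V 13 of 16. Complex IV had 12 lower and 1 higher of 17 tested. Complex II, which has no mitochondrially encoded partner, had 4 of 4 lower with the smallest median (-0.58, against -0.80 for complex I subunits, -0.90 for complex III, -0.90 for complex IV and -0.86 for complex V members). Its catalytic flavoprotein Sdha was at 318.2 and 319.2 CPM in WT, 265.3 and 207.9 CPM with mCdx2 and from 192.9 through 234.9 to 269.1 CPM over the induced libraries (-0.43 ± 0.12, adjusted p = 0.00491, edgeR). The call on Sdha was lost with library totals (-0.24, adjusted p = 0.0938), with only the libraries compared in the fit (0.0528) and without mCdx2 replicate 2 (-0.27, 0.0849, edgeR). The iron-sulphur subunit Sdhb was at 109.1 and 111.4 CPM in WT and 60.2 to 98.0 CPM in the induced libraries (-0.57 ± 0.13). The membrane anchors Sdhc (116.1 and 124.5 CPM in WT, 65.2 to 95.8 CPM induced) and Sdhd (140.5 and 143.1 CPM, 65.1 to 107.4 CPM) changed by -0.58 and -0.67, and the call on Sdhd was lost with the length and GC offsets (-0.24, adjusted p = 0.0933, edgeR). All 4 lay below WT in every induced library.

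Summed over the members of each complex, 83 in all without the complex I assembly factors, the WT libraries held 3149 and 3209 CPM of complex I RNA and the induced libraries 1612 to 2120 CPM. The sums were 684 and 698 against 383 to 532 CPM for complex II, 1397 and 1397 against 716 to 911 CPM for complex III, 2996 and 3019 against 1351 to 1917 CPM for complex IV, and 6692 and 6930 against 3875 to 4961 CPM for complex V. No induced library reached a WT library in any complex. Gene by gene, 72 of the 89 members were below both WT libraries in all 18 induced libraries (28.6% of all genes were), and 1, the b subunit Atp5f1, was above them in all (21.7% of all genes).

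**Figure D2:**
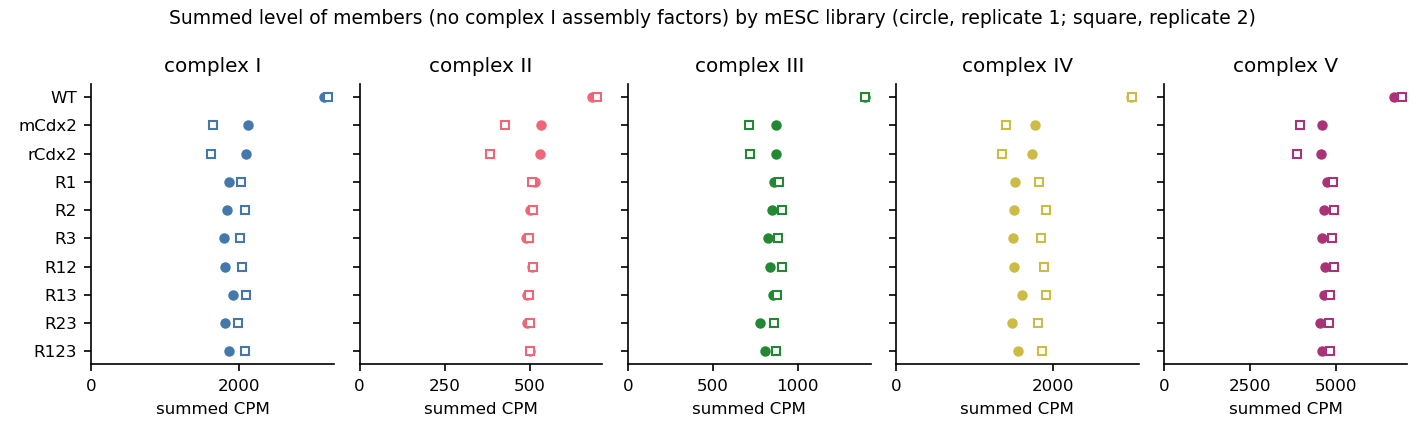
The summed CPM of the members of each complex, without complex I assembly factors, is plotted for each of the 20 mESC libraries (circles, replicate 1, squares, replicate 2) by construct, with the axis of each panel starting at 0. The WT libraries held 3149 and 3209 CPM for complex I and 6692 and 6930 CPM for complex V, and every induced library lay to the left of them in all 5 panels.

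Not all members passed the test. Atp5f1 was at 268.7 and 269.7 CPM in WT and 273.8 to 294.8 CPM in the induced libraries, a log2 difference of 0.10 ± 0.06 with mCdx2 (adjusted p = 0.133, edgeR), while the catalytic beta subunit Atp5b fell from 2373 and 2373 CPM to between 1413 and 1811 CPM (-0.59 ± 0.09). Atp5s, a coupling factor outside the core enzyme, was at 8.17 and 7.92 CPM in WT and 6.66 to 13.5 CPM in the induced libraries (0.23 with mCdx2, adjusted p = 0.132, edgeR). The other 13 members that did not pass the test with mCdx2 were Uqcr10, Cox8a, Cox6b1, Cox6b2, Cox7b, Ndufa6, Ndufa13, Ndufb4, Ndufb11, Ndufc2, Ndufs4, Ndufv2 and Atp5g2. Of these, Uqcr10, Cox6b1, Cox6b2, Ndufa13, Ndufb4, Ndufb11 and Ndufs4 nevertheless lay below both WT libraries in all 18 induced ones. Atp5g2 encodes 1 of 3 copies of the c ring subunit and was at 10.6 CPM in WT replicate 1 but 203.7 CPM in WT replicate 2, against 101.3 to 148.9 CPM in the induced libraries. Its log2 change with mCdx2 was 0.08 with both WT libraries, -0.85 without WT replicate 1 (adjusted p = 0.0107, edgeR) and 3.41 without WT replicate 2 (adjusted p = 3.76e-07, edgeR), so its direction rests on 1 library. The other c ring genes fell, Atp5g1 from 286.5 and 309.4 CPM to 129.2 and 106.8 CPM with mCdx2 (-1.33 ± 0.10) and Atp5g3 from 401.4 and 420.1 CPM to 181.7 and 146.7 CPM (-1.32 ± 0.11).

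Several complex IV subunits exist as a common form and a form known from particular tissues, and in WT mESCs the common form was the higher one in each pair. Per kilobase of annotated exon, Cox4i1 was at 367.6 and 368.4 CPM and the lung and hypoxia form Cox4i2 at 0.90 and 0.62 CPM. Cox6a1 was at 369.9 and 354.4 CPM per kilobase and the heart and muscle form Cox6a2 at 0.125 and 0.134. Cox8a was at 442.1 and 428.6 CPM per kilobase and the testis form Cox8c at 0.53 and 0.20. The margin was smaller for Cox6b1 (273.5 and 291.3 CPM per kilobase) over the testis form Cox6b2 (46.7 and 48.3) and for Cox7a2 (128.4 and 134.1) over the muscle form Cox7a1 (29.8 and 30.3).

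With mCdx2 the common forms Cox4i1 (-1.15 ± 0.17), Cox7a2 (-0.93 ± 0.28) and Cox6a1 (-0.77 ± 0.22) fell, as did Cox7a1 (-1.40 ± 0.34) and Cox7a2l, which helps complexes III and IV to join (-0.87 ± 0.19). Cox4i1 was at 517.6 and 518.7 CPM in WT and from 179.1 through 210.6 to 275.5 CPM in the induced libraries, with no overlap. Cox6a1 was at 259.7 and 248.8 CPM in WT, 144 and 154.3 CPM with mCdx2 and up to 274.6 CPM in other induced libraries, so that its groups overlapped, and with offsets for gene length and GC content its log2 change with mCdx2 turned to 0.42. With the same offsets the calls on Cox7a2 (-0.25, adjusted p = 0.35), Cox7a1 (-0.15, 0.62) and Cox7a2l (-0.38, 0.0522, edgeR) were lost. That on Cox7a2 was also lost with only the libraries compared in the fit (adjusted p = 0.0546) and without mCdx2 replicate 2 (-0.53, 0.0997, edgeR), and without mCdx2 replicate 1 its log2 change was -1.54. Ndufa4 (-1.02 ± 0.18), now known as a complex IV subunit, and its hypoxia-linked relative Ndufa4l2 both fell. Ndufa4l2 was low throughout, with 217 and 349 counts in WT (3.07 and 3.98 CPM) and 15 and 2 counts with mCdx2 (0.63 and 0.13 CPM), and fell by 3.05 ± 0.49 on the log2 scale (-4.71 without mCdx2 replicate 1). The testis form Cox7b2 had 74 and 68 counts in WT and 2 and 5 with mCdx2 (-2.29 ± 0.63), and its call was lost without mCdx2 replicate 1 (-1.47, adjusted p = 0.0996) and with the offsets (-1.20, 0.0859, edgeR).

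Cox6a2 was the member that rose with mCdx2, by 1.47 ± 0.54 (adjusted p = 0.0233, edgeR), but on 6 and 8 counts in WT and 6 and 4 counts with mCdx2, which is 0.085 and 0.091 against 0.25 and 0.26 CPM. The call was lost with DESeq2 (adjusted p = 0.0603) and without any 1 of the 4 libraries compared (adjusted p from 0.0652 to 0.124, edgeR). Over all 18 induced libraries it ran from 0.080 through 0.34 to 1.47 CPM and overlapped WT.

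Rat Cdx2 and the mutants were compared with the same WT libraries. With rCdx2, 73 of 89 members fell (36.2% of all genes), 1 rose (34.4%), namely Cox6a2, and 31 fell over 2-fold (15.4%), with a median of -0.78. Over the mean of the 7 mutants 71 fell (39.0% of all genes) and 2 rose (34.9%), namely Cox6a2 and Atp5s. Over 2-fold, 28 fell (13.9%), and the median of the members was -0.73. Cox6a2 rested on few counts, and its log2 change varied by construct. It was 3.83 with R13, 3.47 with R23, 3.33 with R123 and 2.12 with R3. With rCdx2, R12, R1 and R2 it was 1.84, 1.38, 0.95 and 0.14. Cox6a2 passed the low-count filter through constructs where it was high, so its rises here are descriptions. The medians of the 9 constructs lay between -0.69 (R13) and -0.79 (R23), and that of complex II subunits was the smallest of the 5 complexes in each. Among the mutants the largest falls were those of Atp5e (-2.25 ± 0.15), Atp5k (the e subunit, -2.23 ± 0.29), Cox7a1 (-2.07 ± 0.22), Uqcr11 (-2.04 ± 0.17) and Ndufa1 (a complex I subunit encoded on the X chromosome, -1.90 ± 0.22).

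Mouse and rat Cdx2 were then compared with each other. No member differed (0 of 89 at adjusted p under 0.05 by edgeR and by DESeq2, and 0 at an unadjusted p under 0.05), against 0.0188% of all genes. The log2 differences, mouse minus rat, ran from -0.49 to 0.71, and both ends were genes with few counts, Cox7b2 (-0.49 ± 0.87) and Ndufa4l2 (0.71 ± 0.78). Well-counted members were held within narrower errors, as for Ndufs1, a core subunit of complex I (-0.05 ± 0.08), Uqcrc1 (-0.04 ± 0.08), Atp5b (0.02 ± 0.09), Sdha (0.03 ± 0.12) and Cox4i1 (0.08 ± 0.17). Each error is 1 SE and not a limit of detection. With 2 libraries a construct, differences larger than these errors could also have gone uncalled.

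The rat constructs carried the 3 changes singly and in every combination, which let each change be tested over 8 constructs. Change 1 gave no call (0 of 89 members by edgeR and DESeq2, 1 at an unadjusted p under 0.05, 0% of all 15114 genes). Change 2 gave none either (0 of 89 by both tools, 3 at an unadjusted p under 0.05, 0% of all genes). The log2 differences of the members ran from -0.26 to 0.42 and from -0.23 to 0.50. Against WT, rCdx2 stood apart from the mutants at some members. Ndufaf5 was at -0.67 (mutants 0.02 to 0.23) and Ndufa1 at -1.09 (mutants -2.06 to -1.68). The median over the members did not stand apart (-0.78, mutants -0.79 to -0.69). The part of this in the tests of single changes was not tested, and effects could have gone uncalled. With change 3, 9 members were higher (18.2% of all genes) and 3 lower (18.4%), fewer in share than among all genes. The induced level of Cdx2 was itself lower with change 3, by 0.74 on the log2 scale (adjusted p = 0.0367, edgeR), and its part in these differences was not tested.

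The members that differed most with change 3 were isoform genes of complex IV with low counts. Cox6a2 was at 0.31 and 0.37 CPM with rCdx2, 0.28 and 0.099 with R1, 0.080 and 0.11 with R2 and 0.32 and 0.17 with R12. The constructs with change 3 were higher, at 0.39 and 0.41 CPM with R3, 1.17 and 1.47 with R13, 0.82 and 1.21 with R23 and 0.76 and 1.11 with R123. In counts these were 1 to 8 without change 3 and 7 to 29 with it, so that Cox6a2 passed the low-count filter only through the group where it was high. The fitted difference was 2.03 ± 0.36 (adjusted p = 0.000376, edgeR) and is a description for that reason. Cox7b2 ran from 0.11 to 0.63 CPM in the 8 libraries without change 3 and from 0.67 to 2.20 CPM in the 8 with it (1.59 ± 0.32). Ndufa4l2 ran from 0.19 to 0.77 CPM without it and 0.21 to 2.22 CPM with it and overlapped (1.301 ± 0.38). Whether Cox7b2 and Ndufa4l2 would pass the low-count filter on the libraries without change 3 alone was not tested, so their values are descriptions too.

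Differences at the better counted members were smaller. Atp5s ran from 6.66 to 9.71 CPM in the libraries without change 3 and from 10.1 to 13.5 CPM with it, a difference of 0.50 ± 0.09 with no overlap. Cox6b2 (0.43 ± 0.13), the complex I subunit Ndufa6 (0.35 ± 0.08) and the assembly factors Ndufaf6 (0.33 ± 0.10), Ndufaf7 (0.30 ± 0.06) and Ndufaf1 (0.21) were also higher. The complex III hinge protein Uqcrh (-0.46 ± 0.13), Ndufa8 (-0.34 ± 0.08) and Atp5g3 (-0.26 ± 0.05) were lower.

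**Figure D3:**
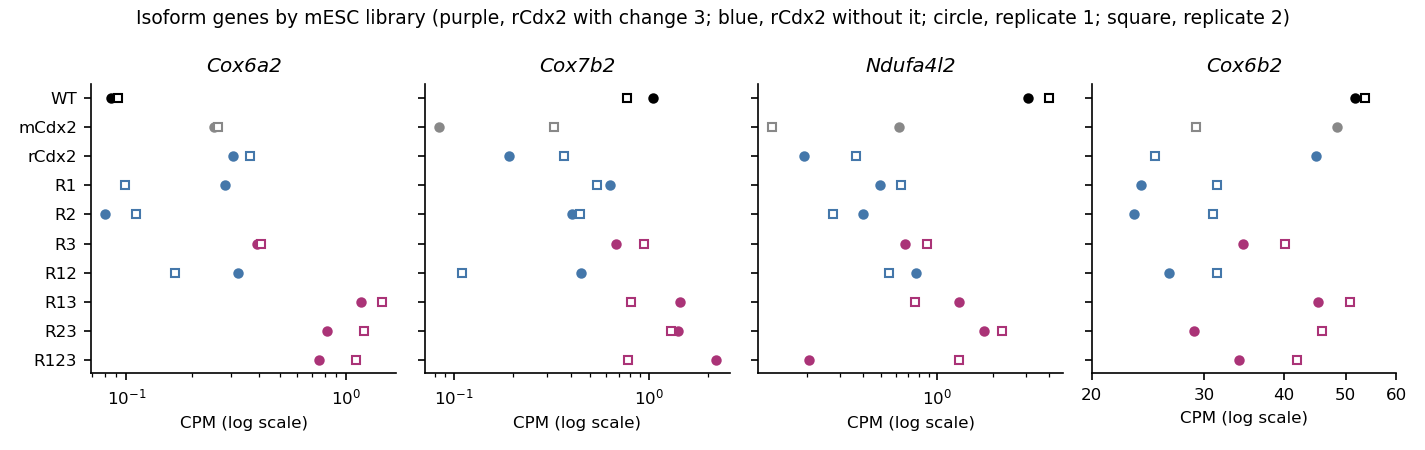
The CPM (log axis) of 4 complex IV isoform genes is plotted for each mESC library by construct (circles, replicate 1, squares, replicate 2, purple with change 3, blue without it, grey mCdx2, black WT). Libraries with change 3 lay to the right for Cox6a2, from 0.39 to 1.47 CPM against 0.080 to 0.37 CPM without it, whereas WT was highest for Ndufa4l2, at 3.07 and 3.98 CPM.

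Gene length moved with the difference between induced and WT libraries. Over all 16000 genes the log2 change with mCdx2 rose with annotated length (Spearman's rho 0.24 across genes, a description), and the members were short, with a median of 1587 bases against 3878. Genes of 0.5 to 1 kb had a median change of -0.76, and the 22 members of that length -0.93. From 1 to 2 kb the medians were -0.36 for all genes and -0.86 for 33 members, from 2 to 4 kb -0.11 and -0.60 for 24 members, and over 4 kb 0.15 and -0.61 for 9 members, of which 9 fell. With length and GC content taken up as offsets in the fit, 51 members fell and 6 rose with mCdx2, 58 and 5 with rCdx2, and 55 and 11 over the mutants. In that fit 41.9%, 42.6% and 37.8% of all genes fell and 31%, 31.2% and 36% rose. The medians of the members were -0.52, -0.54 and -0.35, and those of all 15817 genes tested -0.13, -0.14 and -0.0024. On the mouse alleles of RMES cells they were -1.07 for the members and -0.34 for all genes, and on the rat alleles, with length alone, -1.12 and -0.45.

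**Figure D4:**
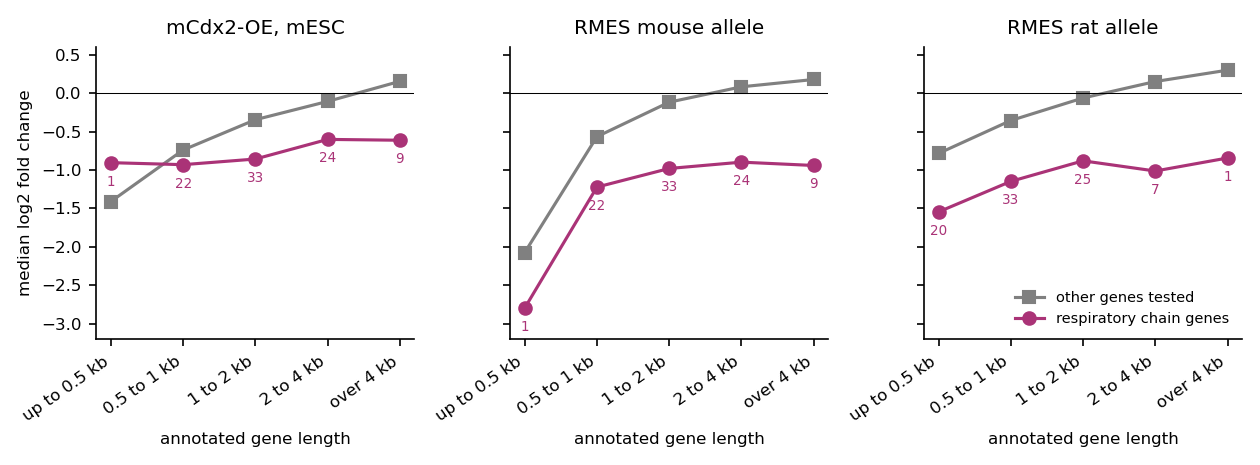
The median log2 fold change of respiratory chain genes (purple, with the number of members) and of other genes tested (grey) is plotted by annotated length for mCdx2-OE mESCs and both RMES alleles. In mESCs the members of 1 to 2 kb were at -0.86 and other genes of that length at -0.35, and over 4 kb the members were at -0.61 and other genes at 0.15.

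Other genes of mitochondrial function, from lists of known members, were lower too. With mCdx2, 35.8% of all genes fell and 34.0% rose. Of 78 mitochondrial ribosomal protein genes 68 fell and 1 rose (median -0.72), as did 28 and 3 of 38 assembly factors outside the rule (-0.69) and 12 and 0 of 14 regulators of mitochondrial biogenesis (-0.57). The list was not alone in this, since 78 of 92 cytosolic ribosomal protein genes fell and 3 rose (-0.93). Among regulators, the coactivator Ppargc1b (-1.08 ± 0.12), its nuclear receptor partner Esrra (-1.07 ± 0.20), the mitochondrial DNA packaging factor Tfam (-0.68 ± 0.07), the pluripotency-linked receptor Esrrb (-0.41 ± 0.10) and Nrf1 (-0.40 ± 0.08) fell, and the ETS factor Gabpa was at 0.18 ± 0.14 (adjusted p = 0.255, edgeR). Over the 7 mutants 10 of the 14 regulators fell (39.0% of all genes) and 3 rose (34.9%). The latter included Esrrb (0.27 ± 0.07, adjusted p = 0.00408) and Gabpa (0.70 ± 0.11, adjusted p = 2.12e-05, edgeR). Cytochrome c1 (Cyc1) fell by 1.13 ± 0.15 on the log2 scale, and cytochrome c (Cycs) did not pass the test (-0.53 ± 0.27, adjusted p = 0.0888, edgeR) and differed between replicates, with 58.5 and 125.8 CPM at mCdx2 and 133.3 and 130.3 CPM in WT.

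The mitochondrially encoded subunits were counted in the same libraries. Of the 13, 6 rose and 1 fell with mCdx2, against 34.0% and 35.8% of all genes. Their sum was 18270 and 17580 CPM in WT and 26290 to 57090 CPM in the induced libraries. As CPM of the unscaled library total, mt-Nd1 was at 2545 and 2526 in WT and 4575 to 8809 in the induced libraries, and mt-Cytb at 2680 and 2611 against 4391 to 7312. The counts of mt-Co2 (126.1 and 0.88 CPM), mt-Co3 (139.2 and 0.76) and mt-Atp6 (66.7 and 0.68) differed between the WT libraries. So did those of mt-Nd3 (9.67 and 0.12), mt-Nd4l (9.965 and 0) and mt-Atp8 (0.36 and 0.011). The deposited counts of these genes were not read as their levels, though the calls and the sum above include them.

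Promoters of the members were read from RefSeq (GRCm38.p6, the assembly also called mm10), as 250 bases before to 50 after the start site, and were found for 75 of the 91. Motifs were sought by their letters on both strands. The NRF1 motif, a palindrome of 10 bases with 1 open position, was in 19 of the 75 (25.3%, against 5.19% of all 27025 promoters and 9.36% of those of genes in the tables), the ETS motif CCGGAAG in 18 (24%, against 9.93% and 16.8%) and the YY1 motif, a run of 10 bases, in 6 (8%, against 0.995% and 1.86%). The SP1 motif GGGCGG was in 35 (46.7%, against 38.2% and 62.3%) and the Cdx motif TTTATNG in 9 (12%, against 12.5% and 8.87%). A match of letters is a description and not a shown binding site. In all, 33 of the 75 held an NRF1 or ETS motif and 4 held both, for which no share over all promoters was computed. The stretches below were picked among members that held NRF1 or ETS letters. They come from some of the largest changes in either cell type and from complex II. Ndufb2, Cox7c and Ndufa1, also among the largest falls, held neither motif. The NRF1 or ETS letters (the latter also as its reverse complement) are in capitals. Each stretch is on the minus strand and read 5′ to 3′ toward the gene.
Atp5e, chr2:174464102-174464221: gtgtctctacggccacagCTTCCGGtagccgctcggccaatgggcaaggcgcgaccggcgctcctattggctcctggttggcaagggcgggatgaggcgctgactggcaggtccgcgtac
Uqcr11, chr10:80406822-80406941: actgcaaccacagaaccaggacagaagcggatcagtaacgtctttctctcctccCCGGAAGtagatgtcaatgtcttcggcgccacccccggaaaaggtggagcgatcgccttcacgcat
Atp5k, chr5:108434440-108434519: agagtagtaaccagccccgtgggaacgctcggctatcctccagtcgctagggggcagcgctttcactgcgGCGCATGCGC
Ndufb4, chr16:37654428-37654488: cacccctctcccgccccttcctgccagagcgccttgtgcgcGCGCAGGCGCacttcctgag
Sdha, chr13:74350280-74350315: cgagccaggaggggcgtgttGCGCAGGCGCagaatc
Sdhd, chr9:50603850-50603939: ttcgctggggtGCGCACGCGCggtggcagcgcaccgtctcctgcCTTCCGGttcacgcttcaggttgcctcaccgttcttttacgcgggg
Sdhd held both motifs, with the NRF1 letters beginning 79 bases and the ETS letters 46 bases before its start site, and changed by -0.67 with mCdx2. Atp5k also held both, with ETS letters beginning 12 bases after its start site and outside the stretch shown, and changed by -1.27. Atp5e and Uqcr11 held the ETS letters and changed by -1.89 and -1.64, and Sdha held the NRF1 letters and changed by -0.43.

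Cdx2 ChIP-seq peaks lay within 1 kb of the start site at 13 of the 91 members in mESCs (14.3%, against 8.73% of all placed genes), and at 4 on the mouse genome of RMES cells (4.4%, against 5.35%). The deposited table gave 1 read count a peak for mCdx2 and 1 for rCdx2, with no replicate, so that no test was possible. Most of these peaks were small, and 11 of the 13 held 41 to 99 reads over both libraries. The exceptions were Cox6b1, with 120 mCdx2 and 121 rCdx2 reads (more than 89.1% of the 91665 peaks), and the complex III subunit Uqcrb, with 124 and 89 reads (more than 86.3%). The Cdx motif was in 5 of the 13 peaks, against 63.8% of all mESC peaks. The peaks of the same genes in RMES cells held 65 reads (31 mCdx2, 34 rCdx2) at Cox6b1 and 169 reads (110 and 59) at Uqcrb. The mESC peak at Cox6b1 spanned 883 bases and held 2 Cdx motifs. Printed here in whole is the narrower RMES peak at Cox6b1 (281 bases), from the mm10 plus strand with its Cdx motif in capitals. It was chosen because Cox6b1 had the best counted mESC peak at a member and the RMES peak lay outside annotated exons.
Cox6b1 peak, chr7:30626684-30626964: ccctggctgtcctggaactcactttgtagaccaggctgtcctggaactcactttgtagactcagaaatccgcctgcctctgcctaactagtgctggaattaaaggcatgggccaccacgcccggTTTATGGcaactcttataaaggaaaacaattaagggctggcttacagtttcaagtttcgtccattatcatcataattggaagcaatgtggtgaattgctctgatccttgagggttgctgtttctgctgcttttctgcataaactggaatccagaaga
Uqcrb RNA was at 122.1 and 117.2 CPM in WT and 83.6 to 116.3 CPM in the induced mESC libraries (-0.37 ± 0.09 with mCdx2, adjusted p = 0.00179, edgeR). Cox6b1 was at 193.6 and 206.2 CPM in WT and 180.6 and 85.4 CPM with mCdx2, and did not pass the test (-0.58 ± 0.29, adjusted p = 0.0829, edgeR).

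Chromatin at the start sites was measured by ATAC-seq in 1 WT and 1 mCdx2-OE mESC library, without replicates. A peak was found at 88 of the 91 members, and 4 were over 2-fold higher with mCdx2 after scaling to reads in peaks (9.84% of all genes), and 1 was over 2-fold lower (2.44%). The median log2 ratio of the members was 0.38 and that of all genes 0.35. Of the 4, Ndufa1 (1.48), Cox7b (1.29) and Ndufb11 (1.17) are on the X chromosome, where the median ratio over 489 genes was 1.14 against 0.33 on autosomes, and Ndufb5 (1.13) is autosomal. The median RNA change of X-linked genes with mCdx2 was 0.59, against -0.04 on autosomes. The lower one was Ndufa4l2, with 43.6 normalised reads in WT and 14.8 with mCdx2 (-1.50), the member with the largest RNA fall.

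RMES cells allowed the same genes to be read from mouse and rat chromosomes in 1 nucleus. On the mouse alleles 83 of 89 members tested fell in the induced libraries against those labelled WT (39.0% of all genes) and 2 rose (42.8%), with 44 over 2-fold lower (16.1%). On the rat alleles 81 of 86 fell (39.0%) and 4 rose (43.5%), with 48 over 2-fold lower (14.2%). The medians of the members were -0.997 and -1.08, and those of all genes 0.08 and 0.07. The mCdx2 and rCdx2 libraries gave medians of -0.91 and -1.03 on the mouse and -1.002 and -1.16 on the rat alleles. In the same libraries markers of mESCs summed to 4430 to 4470 CPM in those labelled WT and 1800 to 1850 CPM in the induced ones on the mouse genes, trophoblast markers were at 165 to 173 and 851 to 1000 CPM, fibroblast markers at 22.3 to 27.1 and 7.91 to 10.9 CPM with Twist2 at no more than 3 counts, and primitive endoderm markers at 4.63 to 6.23 and 10.6 to 11.5 CPM. On the rat genes markers of mESCs were at 3390 to 3430 and 1080 to 1180 CPM, trophoblast markers at 302 to 321 and 971 to 1070 CPM, fibroblast markers at 20.5 to 26.5 and 23.7 to 30.2 CPM with Col1a2 at no more than 3 counts, and primitive endoderm markers at 6.54 to 6.74 and 10.2 to 12.2 CPM. The part of these markers in the changes of the members was not tested.

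The largest falls came from complexes I, IV and V. Atp5k was at 58.65 and 56.97 CPM in the libraries labelled WT, 8.43 with mCdx2 and 7.75 with rCdx2 on the mouse allele (-2.84 ± 0.08), and its rat counterpart Atp5i was at 98.5, 91.4, 14.1 and 12.0 CPM (-2.86 ± 0.08). Ndufb4 was at 67.1, 62.0, 10.98 and 10.4 CPM in mouse (-2.59 ± 0.08) and 60.4, 62.8, 15.1 and 12.0 CPM in rat (-2.19 ± 0.10). Cox7c was at 288.2, 287.2, 51.1 and 46.2 CPM in rat (-2.56 ± 0.07) and changed by -1.68 in mouse. Ndufa1 was at 35.4, 32.8, 5.12 and 4.68 CPM in mouse (-2.80 ± 0.10) and had no count in rat. The rat c ring gene Atp5mc2 (-1.98 ± 0.06), the rat assembly factor Ndufaf8 (-1.93 ± 0.13) and mouse Cox7b2 (-2.45 ± 0.28) were also among the largest falls. The call on mouse Cox7b2 was lost with the length and GC offsets (-0.57, adjusted p = 0.0749, edgeR).

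Complex II fell on both alleles at all 4 genes, where 39.0% of all genes fell on each. Sdha was at 501.3, 490.2, 287.1 and 287.5 CPM in mouse (-0.79 ± 0.05) and 412.2, 400, 199 and 184.4 CPM in rat (-1.08 ± 0.06). Sdhb was at 102.1, 98.9, 54.5 and 46.2 CPM in mouse (-0.997 ± 0.07) and 148.1, 145.2, 121.7 and 111.4 CPM in rat (-0.33 ± 0.06). The call on rat Sdhb was lost with library totals in place of TMM scaling (-0.12, adjusted p = 0.0558, edgeR), and with totals free of mitochondrially encoded genes its value was 0.10 (adjusted p = 0.115, edgeR). Sdhc changed by -0.86 and -1.004 and Sdhd by -0.97 and -0.85.

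Few members rose, most of them low in counts. On the mouse alleles Cox4i2 had 2, 3, 28 and 21 counts (2.94 ± 0.57) and passed the filter through the induced libraries alone, and Ndufa4l2 was at 0.22, 0.28, 0.50 and 0.69 CPM (1.25 ± 0.45). On the rat alleles Ndufa4l2 had 1, 3, 25 and 21 counts (3.06 ± 0.62), Atp5s was at 1.68, 1.23, 4.24 and 4.21 CPM (1.54 ± 0.23), Cox6b2 at 11.6, 11.2, 17.1 and 17.6 CPM (0.61 ± 0.11) and Ndufb10 at 66.9, 70.6, 87.3 and 79.8 CPM (0.28 ± 0.07). Rat Ndufa4l2 passed the filter through the induced libraries alone. The call on mouse Ndufa4l2 was lost with DESeq2 (adjusted p = 0.152), with the length and GC offsets (adjusted p = 0.0548, edgeR) and without WT replicate 1 (0.122), WT replicate 2 (0.073) or the rCdx2 library (0.161), and that on rat Ndufb10 without WT replicate 1 (adjusted p = 0.0524, edgeR). The 4 mouse members that did not pass were Ndufa10, Ndufv3, Cox6a1 and Atp5s, and the rat one was Cox4i2.

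The induced RMES libraries differed from those labelled WT in the species of their mitochondria. The 13 mitochondrially encoded genes had 859975 and 1083121 mouse reads and 1743 and 2496 rat reads in the libraries labelled WT. The mCdx2 and rCdx2 libraries had 11358 and 9347 mouse reads and 5038553 and 4916435 rat reads. The rat share was thus 0.2023% and 0.2299% in the former and 99.78% and 99.81% in the latter. The labels do not say whether the libraries labelled WT and the induced ones came from 1 RMES line, so Cdx2 induction, mitochondrial species and cell line cannot be told apart in these 4 libraries. The mouse share of the reads of nuclear-encoded members was 54.85% and 54.86% in the libraries labelled WT and 54.36% and 54.27% in the induced ones, while that of all paired genes was 55.13% and 55.21% against 53.8% and 53.52%.

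**Figure D5:**
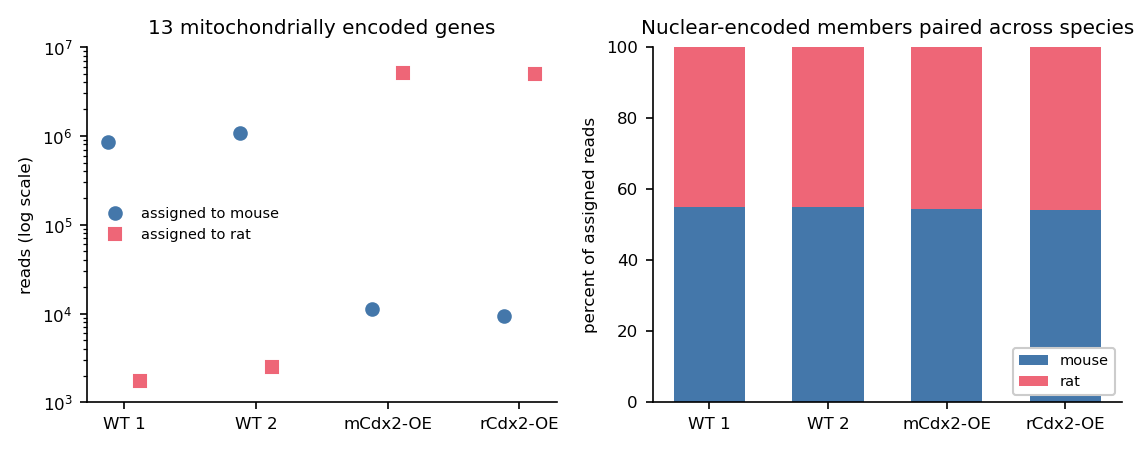
The left panel plots reads of the 13 mitochondrially encoded genes assigned to mouse (circles) and rat (squares) in each RMES library on a log axis, and the right panel the percent of reads of paired nuclear-encoded members assigned to each species. Mitochondrial reads passed from 0.2023% and 0.2299% rat to 99.78% and 99.81% rat between the libraries labelled WT and the induced ones, while the nuclear mouse share stayed between 54.27% and 54.86%.

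Whether the change differed between alleles was tested as an allele by induction interaction within libraries. Of 86 paired members tested, 30 had a higher log2 change on the mouse than the rat allele (30.3% of all genes) and 30 a lower one (31.9%), shares close to or just above those of all genes. Most of the differences were small, and 5 of the 60 exceeded 1 on the log2 scale, 1 of them higher and 4 lower. Of all 13618 genes, 1553 were higher and 1820 lower by as much at the same threshold. Atp5e changed by -2.49 in mouse and its rat counterpart Atp5f1e by -1.32 (interaction -1.19 ± 0.06), whereas Cox7c changed by -1.68 in mouse and -2.56 in rat (0.86 ± 0.05). Cox6b2 was at 52.3, 53.5, 24.4 and 24.7 CPM in mouse and rose in rat (interaction -1.74 ± 0.11), and Atp5s was at 7.71, 9.70, 8.32 and 8.20 CPM in mouse and rose in rat (-1.64 ± 0.25). The other 2 were Cox7a1, with 2, 0, 6 and 17 rat counts (-3.92 ± 0.97), and Atp5f1, with 5, 5, 0 and 1 counts on rat Atp5pb (2.40 ± 0.94), both resting on rat counts near the floor of 3 counts a library. The interaction of Atp5f1 was lost with DESeq2 (adjusted p = 0.188) and without WT replicate 1, WT replicate 2 or the mCdx2 library (adjusted p from 0.0732 to 0.314, edgeR) and was 4.69 without the rCdx2 library, and that of Cox7a1 was -7.37 without WT replicate 1.

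Complex IV and complex I gave further examples of unlike alleles. Cox6a1 was at 190.8, 182.4, 191.4 and 182.4 CPM on the mouse allele, with no change by the test (0.00 on the log2 scale), and at 314.6, 296, 217.8 and 192 CPM on the rat allele (-0.58 ± 0.07). Ndufb10 changed by -0.42 in mouse and 0.28 in rat. Ndufb7 (-0.84 in mouse, -1.79 in rat, interaction 0.93 ± 0.06) and Ndufb8 (-0.38 and -1.20, interaction 0.79 ± 0.05) fell less in mouse, and Ndufb6 fell more (interaction -0.87 ± 0.06).

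The level of the alleles, apart from the difference between induced and WT libraries, differed for 46 members, with mouse higher at 20 (27.2% of all genes) and lower at 26 (26.5%). The median mouse share of reads was 52.87% over the members and 54.9% over all paired genes. The lowest shares were those of Ndufv3 (37.1%), Ndufaf3 (38.6%) and Sdhb (38.6%). The highest were those of Ndufa1 (2735 mouse and 0 rat counts), Atp5f1 (18996 and 11 counts) and Cox7b2 (392 and 25 counts, 93.7%), followed by Ndufa12 (8557 and 717 counts, 92.2%). These shares were not divided by length, and annotated exon lengths differed between the species, so that a share far from 50% can come from the annotation or from read assignment as well as from the alleles, which was not tested.

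With library totals in place of TMM scaling the median of all genes moved by 0.18 in mESCs, 0.42 on the mouse and 0.21 on the rat alleles of RMES cells, and with the offsets by -0.10, -0.42 and -0.52, and the changes of the members are stated relative to all genes for that reason.

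In RMES cells the lists beside the respiratory chain were also lower. On the mouse alleles 70 of 78 mitochondrial ribosomal protein genes and 84 of 92 cytosolic ones fell, and on the rat alleles 63 of 72 and 82 of 91. Of all genes 39.0% fell on each. Tfam changed by -0.68 in mouse and -1.22 in rat, Nrf1 by -0.93 and -0.55, Gabpa by -1.26 and -0.40, and Cyc1 by -0.86 and -0.69, each past the threshold. Ppargc1b, by contrast, was at 0.00 in mouse (adjusted p = 0.994, edgeR) and fell by 1.28 ± 0.10 in rat. Ppargc1a, its relative in energy-demanding tissues, had 0, 0, 11 and 14 mouse counts.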

How the data were processed

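Gene counts, open-chromatin peaks (ATAC-seq) and Cdx2 binding peaks (ChIP-seq) of mESC and RMES cells were used. The deposited RNA tables hold raw read counts per gene. The authors aligned reads with STAR 2.7.0d to mm10 and, for RMES cells, also rn6, kept reads on the nearer genome, and counted read pairs strand-specifically with featureCounts (1.6.0 in the header of the second mESC table; the first and second mESC replicates were counted in separate runs) on an annotation without pseudogenes, so reads shared with pseudogene copies could shift between samples. ChIP and ATAC tables hold read counts in peaks, which the authors made with Bowtie2 2.3.4.3, cutadapt 2.6, Picard 2.6.0 and MACS2.

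Counts were tested with edgeR 4.0.16 (R 4.3.3, quasi-likelihood, TMM, filterByExpr, Benjamini-Hochberg threshold 0.05), 1 fit over 20 mESC libraries, 1 over 16 rat-construct libraries, 1 for each RMES genome and 1 paired over alleles with library effects. DESeq2 1.42.0, other scalings, filters, thinning, offsets for length and GC, omitted libraries and replicate blocks were tried, the length and GC offsets and mitochondria-free totals after the data were seen. Over all groups replicate numbers did not pair the samples: correlations of deviations ran from -0.138 to 0.435 (median 0.004), 10 of 45 above 0.1. The mCdx2 and rCdx2 replicates nevertheless differed at many of the same members. No 2 libraries were identical. Values after ± are SEs, taken as the size of the log2 change over the root of the edgeR F statistic, and include the spread between libraries. The fits were tested on simulated data with known changes.

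Named were the 5 largest rises and falls past the threshold with a mean of at least 50 counts and the same direction in both replicates, isoform genes and their partners, complex II, interaction members, extreme mouse shares and members with peaks. Ndufaf1, Atp5f1, Atp5s, Atp5b, Uqcrc1, Ndufs1 and members by ATAC change were named after their values were seen where the rule did not reach them. So were mt-Nd1, mt-Cytb, mt-Co2, mt-Co3, mt-Atp6, mt-Nd3, mt-Nd4l, mt-Atp8 and single marker genes. The members and lists were chosen with earlier results of these data known. Distances of peaks were taken from peak edges to annotated start sites. RMES ChIP peaks on rn6 were not used here, and the value of 1 interaction member and 1 peak sequence are not reported here.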

Additional observations from a re-analysis of the deposited data

Results flagged for a closer look

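The log2 difference between induced libraries and those labelled WT differed between the mouse and the rat allele of RMES cells at 60 paired members, by a test of the difference itself (allele by induction interaction, edgeR, adjusted p from 1.38e-14 to 0.0379). Of 86 members tested, 30 were higher on the mouse allele (30.3% of all genes) and 30 lower (31.9%), so such calls were common among all genes. The values, given for all but 1 of the 60, are log2 changes, mouse minus rat, so that a positive value is a smaller fall or larger rise on the mouse allele. All rest on 2 libraries labelled WT and 2 induced ones, whose mitochondria were of different species.

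In complex I the mouse allele was higher in change for Ndufb7 (0.93), Ndufb8 (0.79), Ndufaf8 (0.68), Ndufs3 (0.53), Ndufs1 (0.40), Ndufs7 (0.32), Ndufa7 (0.32), Ndufv3 (0.22), Ndufb11 (0.17), Ndufa11 (0.17) and Ndufab1 (0.16). It was lower for Ndufb6 (-0.87), Ndufb10 (-0.72), Ndufa2 (-0.68), Ndufaf6 (-0.55), Ndufa9 (-0.48), Ndufb4 (-0.42), Ndufv1 (-0.39), Ndufb2 (-0.38), Ndufaf5 (-0.35), Ndufv2 (-0.34) and Ndufb3 (-0.32).

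In complex II it was higher for Sdha (0.27) and Sdhc (0.12) and lower for Sdhb (-0.69) and Sdhd (-0.15). The call on Sdhd was lost with DESeq2 (adjusted p = 0.106), with upper quartile scaling (0.128) and without WT replicate 1 (0.143), WT replicate 2 (0.136) or the mCdx2 library (0.0656), and that on Sdhc with DESeq2 (0.0527) and without WT replicate 1 (0.0746, edgeR). In complex III it was higher for Uqcrh (0.49), Uqcrc1 (0.36) and Uqcrb (0.19) and lower for Uqcr11 (-0.63), Uqcrfs1 (-0.42), Uqcrq (-0.25) and Uqcrc2 (-0.16).

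In complex IV it was higher for Cox7c (0.86), Cox6a1 (0.56), Cox5b (0.36), Ndufa4 (0.25), Cox8a (0.21) and Cox4i1 (0.11) and lower for Cox7a1 (-3.92, with rat counts near the floor), Cox6b2 (-1.74), Cox6c (-0.27), Cox7b (-0.27), Cox6b1 (-0.23) and Cox5a (-0.18). The call on Cox4i1 was lost at a mean of at least 50 counts (adjusted p = 0.0561) and without WT replicate 1 (0.138), WT replicate 2 (0.067) or the rCdx2 library (0.0674, edgeR). In complex V it was higher for Atp5f1 (2.40, with rat counts near the floor), Atp5g2 (0.84), Atp5g1 (0.66), Atp5h (0.35), Atp5b (0.24), Atp5d (0.23) and Atp5a1 (0.11) and lower for Atp5s (-1.64), Atp5e (-1.19), Atp5j (-0.96), Atp5g3 (-0.53), Atp5o (-0.47), Atp5l (-0.40) and Atp5j2 (-0.17).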

How the results depend on the processing

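The counts of members that fell kept within 1.5 times of their reported values under every alternative but a required 2-fold change, which left 28 (mCdx2), 31 (rCdx2), 28 (mutants), 44 (RMES mouse) and 48 (RMES rat). Leaving out 1 library at a time gave 58 to 79, 60 to 78, 68 to 73, 82 to 83 and 79 to 82. The few rises depended on the setting. With mCdx2 they numbered 0 with DESeq2, 3 with library totals, 3 with upper quartile scaling, 2 with WT thinned and 6 with length and GC offsets (0 to 1 without 1 library). With rCdx2 they were 2, 2, 2, 2 and 5 (1 to 2). For the mutants they were 1 over 2-fold, 5 with library totals, 4 with upper quartile scaling and 11 with offsets (2 to 3). On the RMES mouse alleles they were 1 with DESeq2, 7 with library totals, 5 with upper quartile scaling, 1 at a mean of at least 50 counts, 5 with offsets and 5 with totals free of mitochondrially encoded genes (1 to 2), and on the rat alleles 2 over 2-fold (4 to 5). Except as each alternative is built, the cause was not tested.

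Change 3 gave 3 higher and 0 lower over 2-fold, and without 1 library 8 to 11 higher and 3 to 6 lower, with 6 lower without rCDX2-OE replicate 2. The comparisons of mCdx2 with rCdx2 and of changes 1 and 2 stayed at 0, also without any 1 library (0 to 0). The interaction gave 1 higher and 4 lower over 2-fold (26 to 30 and 24 to 30 without 1 library), and mouse against rat 6 higher and 1 lower over 2-fold (10 to 15 and 16 to 17), where 1 fewer library in each run leaves less to test with. Over 2-fold, 263 of all 15114 genes were higher and 534 lower with change 3. In the interaction 1553 and 1820 of all 13618 genes were, and in mouse against rat 2260 and 1732. Peaks at start sites were 36 within 5 kb (39.6%, against 31.3% of all placed genes) and 2 with at least 100 reads (2.2%, against 3.59%). ATAC changes over 2-fold were 29 without scaling (33%, against 32.8% of all genes with a peak).

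The replicate number did not pair the samples over all groups but also marks the count table. With it as a block, 74, 76 and 73 members fell in the 3 mESC comparisons with WT, and change 3 gave 11 higher. Of 3036 values of named members recomputed, 2932 kept direction and side of the threshold, 93 no longer passed and 11 turned direction. With length and GC offsets the latter were Cox6a1 at mCdx2 (0.42) and rCdx2 (0.39), Cox6b2 (0.22) and Cox6b1 (0.28) in the mutants, and Cox7a1 (0.084) and Cox8a (0.40) on the RMES mouse alleles. With library totals they were Cox7a2l (0.041) and Cox8a (0.033) on the mouse alleles, with totals free of mitochondrially encoded genes Cox7a2l in mouse (0.0056) and Sdhb in rat (0.10), and per annotated length Cox7a2l in mouse against rat (0.69).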
